A study of Mus musculus with 6 samples.

Results

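The genes described here are 10 extracellular proteases of the irradiated mouse thalamus: the kallikreins Klk8 and Klk6, the membrane metalloprotease Adam8, the matrix metalloproteases Mmp8, Mmp12, Mmp2 and Mmp14, the plasminogen activators Plat and Plau, and Adamts1. They were taken by symbol from the deposited count table, where all 10 were found among 21899 genes and all 10 passed the filter on low counts. They had been chosen by name with the comparison of the groups already known, so the difference between the groups is given for them as a description, and where calls are counted among them the count is no test of that difference. RNA was sequenced in bulk from whole thalamus tissue of 6 male C57BL/6J mice of WT genotype, 8 to 10 weeks old on purchase. Every mouse had received a single gamma-ray dose of 50 Gy to the left thalamus, followed 2 weeks later by 2 µL of AAV9 at 5.0E+11 GC/mL, and tissue was removed 6 weeks after the irradiation. In the 3 RC mice the virus was AAV9 GFAP104::tdTomato, which carries a red fluorescent protein only, and in the 3 RN mice it was AAV9 GFAP104::mND1-tdTomato, which also carries mouse NeuroD1, a transcription factor used to turn astrocytes into neurons. The GFAP104 promoter is active in astrocytes, and the tissue held every other cell type as well. Mice without irradiation were not analysed here, so no value below says what irradiation itself did.

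Secreted and membrane-bound proteases cut the matrix around cells, shed receptors and growth factors from membranes and activate each other in cascades. Kallikreins are trypsin-like serine proteases, and plasminogen activators cut plasminogen into plasmin, which in turn activates matrix metalloproteases. Matrix metalloproteases and the ADAM and ADAMTS families use zinc, are made largely as inactive precursors, and are held in check by the Timp inhibitors. In the brain these enzymes are known from myelin, from synapses and vessels, and from the microglia and infiltrating leukocytes of damaged tissue. A count of transcripts measures none of this activity, only the RNA.

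The libraries held between 16561663 and 18657015 counts, with medians of 17542922 in RC and 17843348 in RN. A chi-square per degree of freedom of 15.8 to 31.8 between mice of a group lay far above counting error, and every mouse was kept as a replicate. Neurod1, the gene the virus carries and whose counts can include viral transcripts, had 84, 91 and 90 counts in the RC mice, against 1123, 1711 and 910 in the RN mice, which matched the labels of all 6 mice. All 10 thalamic neuron markers passed the filter, and their summed level lay between 992.2 and 1975 CPM, counts scaled to the size of the library, in RC and between 753.5 and 1472 CPM in RN. Of these 10 markers, 9 had a lower fitted level in RN, with a median log2 fold change of RN over RC of -0.49. At an unadjusted p under 0.05 in edgeR, 0 of them differed. Choroid plexus markers came to 2714, 8299 and 313.2 CPM in the RC mice and to between 57.8 and 135.4 CPM in the RN mice. Hypothalamic neuron markers came to between 66.9 and 265.2 CPM in RC and between 331.5 and 499.0 CPM in RN. Markers of regions next to the thalamus thus differed between the groups, and their part in the results was not tested.

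Of the 10 protease genes, 6 had their 3 RN mice above their 3 RC mice: Klk8, Klk6, Adam8, Mmp8, Mmp12 and Plau. None had its RN mice below its RC mice, and the groups overlapped in the other 4, Mmp2, Mmp14, Plat and Adamts1. Over all 14956 tested genes, every RN mouse lay above every RC mouse in 8.18% and below in 8.12%. The fitted difference reached a doubling in 5 of the 10 genes, where 1.43% of all tested genes did so in that direction. The median log2 fold change of RN over RC was 0.95 over the 10 genes and 0.0037 over all tested genes. Since this contrast was known when the genes were chosen, nothing is read from these shares. Mmp8 moreover passed the filter on low counts only through its RN mice.

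A call required a Benjamini-Hochberg adjusted p under 0.05 over all tested genes together with at least a 2-fold difference. By the quasi-likelihood test of edgeR, 0 of the 10 genes were called, and 0.0735% of all tested genes were called in either direction. At an unadjusted p under 0.05, 8 of the 10 were higher in RN, beside 5.44% of all tested genes. With the replicate number as a block, edgeR called 4 higher in RN (Klk8, Klk6, Adam8 and Mmp12), where it called 0.114% of all genes higher. DESeq2 called these 4 and Mmp8, and 0.609% of its genes higher. Without RN replicate 1, edgeR called 3, Klk8, Adam8 and Mmp12, and 0.172% of all genes higher. As a description of genes chosen on this contrast, the counts show how much the calls moved with the model and with 1 mouse.

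**Figure D1:**
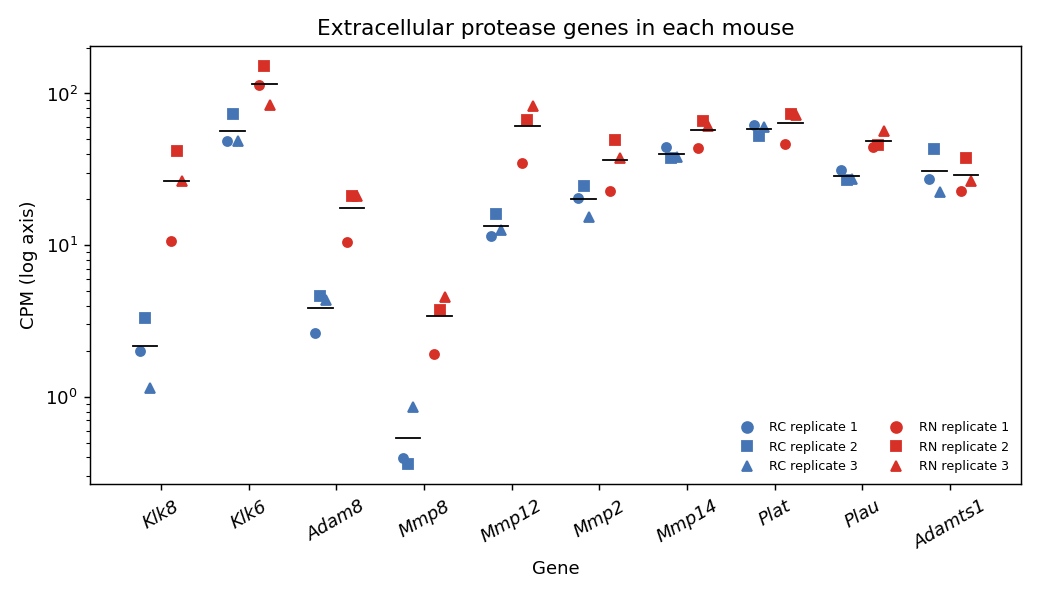
Level of each of the 10 protease genes in each mouse, in CPM on a log axis, with RC mice in blue, RN mice in red, the replicate number as the shape of the point and the group mean as a line. The red points stand above all blue points for Klk8, Klk6, Adam8, Mmp8, Mmp12 and Plau, and RN replicate 1 is the lowest red point for 9 of the 10 genes.

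The stretch before the start of transcription is shown for Klk8 and Adam8, the kallikrein and the ADAM protease with the widest distance between the groups, and for Klk6 and Mmp12, which hold a motif searched for. The sequences are the 250 bases upstream of the RefSeq start in GRCm38.p6, matched by symbol, 5′ to 3′ on the strand of the gene. RefSeq gave 9 such windows for 7 of the 10 genes, while Mmp2, Plat and Plau had no entry. The motifs were CAGATG and CAGCTG, forms of the E-box that NeuroD1 and related factors bind, and TGANTCA, the site of Fos and Jun proteins, each searched on both strands. Matches are in capitals.
Klk8, chr7:43797327-43797576, plus strand, no match: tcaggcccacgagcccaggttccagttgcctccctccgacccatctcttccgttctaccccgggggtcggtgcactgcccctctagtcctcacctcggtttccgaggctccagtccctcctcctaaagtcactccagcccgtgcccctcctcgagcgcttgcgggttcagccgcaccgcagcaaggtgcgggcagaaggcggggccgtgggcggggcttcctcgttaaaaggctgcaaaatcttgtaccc
Klk6 first start, chr7:43824294-43824543, plus strand, with an E-box match: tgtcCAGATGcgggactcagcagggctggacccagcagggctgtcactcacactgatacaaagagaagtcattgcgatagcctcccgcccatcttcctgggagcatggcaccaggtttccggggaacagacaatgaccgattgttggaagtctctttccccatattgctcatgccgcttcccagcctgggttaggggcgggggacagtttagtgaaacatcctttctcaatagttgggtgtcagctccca
Adam8, chr7:139992563-139992812, minus strand, no match: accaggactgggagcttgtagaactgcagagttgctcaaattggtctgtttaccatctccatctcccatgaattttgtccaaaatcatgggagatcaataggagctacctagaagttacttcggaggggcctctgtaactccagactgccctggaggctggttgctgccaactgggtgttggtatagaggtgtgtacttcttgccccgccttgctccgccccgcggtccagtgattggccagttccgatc
Mmp12 second start, chr9:7347124-7347373, plus strand, with a Fos and Jun match: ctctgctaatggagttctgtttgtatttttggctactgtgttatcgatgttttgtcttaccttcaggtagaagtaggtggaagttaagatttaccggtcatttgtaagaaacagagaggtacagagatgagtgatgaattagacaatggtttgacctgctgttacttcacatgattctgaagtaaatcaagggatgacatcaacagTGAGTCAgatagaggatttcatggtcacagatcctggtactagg
Of the motifs, CAGATG stood in 2 of the 9 windows, from 2 of the 7 genes, and in 14.4% of all 32851 RefSeq windows of this length. Its first base lay 246 bases upstream of the first start of Klk6 and 129 bases upstream of the start of Mmp14. CAGCTG stood in 0 of the 9 windows and in 13% of all windows. TGANTCA stood in 1 of the 9 windows, before the second start of Mmp12 with its first base 44 bases upstream, and in 6.75% of all windows. A match describes letters and not a bound site, and no match says only that these letters are absent from this window. Klk8, the gene with the largest difference of the 10, held none of the 3.

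Klk8 (ENSMUSG00000064023) encodes neuropsin, a kallikrein of limbic neurons that cuts matrix and adhesion proteins at synapses and is known to appear in oligodendrocytes after injury. It had 36, 55 and 20 counts in the RC mice, against 180, 781 and 474 in the RN mice. No RN mouse overlapped an RC mouse, and the lowest RN value was 3.26 times the highest RC value, yet the RN mice themselves spanned a 3.9-fold range. In CPM the level was 2.15 ± 1.08 in RC and 26.3 ± 15.5 in RN (SD, n = 3 mice each), a ratio of means of 12.2. The fitted log2 fold change was 3.62 with a standard error (SE) of 0.54, the largest of the 10 genes, and lay between 3.11 and 4.05 when each mouse was left out in turn.

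Klk6 (ENSMUSG00000050063) encodes neurosin, the kallikrein of mature oligodendrocytes, which can degrade myelin proteins and activate protease-activated receptors. Its counts were 860, 1229 and 851 in RC and 1903, 2843 and 1498 in RN. The groups did not overlap, but only narrowly, since the lowest RN mouse was 1.14 times the highest RC mouse. The level was 56.8 ± 14.4 CPM in RC and 116.3 ± 34.2 CPM in RN, with a fitted log2 fold change of 1.04 (SE 0.24, between 0.79 and 1.26 with each mouse left out). Mature oligodendrocyte markers did not share this direction: they summed to between 4841 and 5606 CPM in RC and between 3542 and 5107 CPM in RN, and at an unadjusted p under 0.05 in edgeR 0 of the 10 were higher and 1 was lower. Within the groups Klk6 nevertheless followed these markers from mouse to mouse (r = 0.901 over 6 deviations from the group means), in libraries that share their depth and dissection.

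Adam8 (ENSMUSG00000025473) encodes a membrane metalloprotease and disintegrin of myeloid cells that sheds adhesion molecules and receptors. It had 47, 77 and 76 counts in the RC mice, against 176, 395 and 377 in the RN mice. The RN mice stood clear of the RC mice, with the lowest RN value 2.28 times the highest RC value, and RN replicates 2 and 3 were nearly equal. The level was 3.86 ± 1.07 CPM in RC and 17.6 ± 6.14 CPM in RN, and the fitted log2 fold change was 2.19 (SE 0.32, between 1.97 and 2.45 with each mouse left out). Over the 6 mice the level of Adam8 correlated with that of Klk8 at r = 0.950 (log2 CPM), a value that holds the difference between the groups.

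Mmp12 (ENSMUSG00000049723), the elastase of macrophages, had 206, 268 and 219 counts in the RC mice, against 586, 1247 and 1480 in the RN mice. All RN mice lay above all RC mice, the lowest by a factor of 2.18. The mean was 13.4 ± 2.34 CPM in RC and 61.4 ± 24.4 CPM in RN, a fitted log2 fold change of 2.20 (SE 0.30), between 1.93 and 2.48 with each mouse left out. Mmp8 (ENSMUSG00000005800), the collagenase best known from neutrophil granules, was the scarcest of the 10, with 7, 6 and 15 counts in the RC mice, against 32, 70 and 82 in the RN mice. Its groups were apart as well, and its level of 0.54 ± 0.28 CPM in RC and 3.41 ± 1.37 CPM in RN gave a fitted log2 fold change of 2.65 (SE 0.49), between 2.38 and 3.16 with each mouse left out. At such counts in RC, counting error alone is a large part of the spread. Among the RC mice only replicate 3 reached 10 counts of Mmp8, so the gene passed the filter through the RN mice, where it was high.

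Mmp2 (ENSMUSG00000031740), gelatinase A, and Mmp14 (ENSMUSG00000000957), the membrane-type enzyme that activates its precursor together with Timp2, differed less. Mmp2 had 364, 410 and 268 counts in the RC mice, against 384, 925 and 670 in the RN mice. RN replicate 1 lay among the RC mice and the other RN mice above them, at a fitted log2 fold change of 0.87 (SE 0.28; 20.1 ± 4.58 CPM in RC, 36.6 ± 13.3 CPM in RN) that ran from 0.58 without RN replicate 2 to 1.11 without RN replicate 1. Mmp14 had 794, 626 and 667 counts in the RC mice, against 736, 1239 and 1091 in the RN mice. The same RN mouse was again inside the RC range, and the fitted log2 fold change was 0.51 (SE 0.16; 40.1 ± 3.90 CPM in RC, 57.0 ± 11.8 CPM in RN).

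The plasminogen activators differed from each other. Plau (ENSMUSG00000021822), urokinase, the activator that acts at cell surfaces through its receptor, had 561, 451 and 476 counts in the RC mice, against 749, 854 and 1005 in the RN mice. Its groups did not overlap, the lowest RN mouse being 1.42 times the highest RC mouse, and of the 10 genes it varied least between the RN mice: 28.6 ± 2.52 CPM in RC and 48.8 ± 6.43 CPM in RN, with a fitted log2 fold change of 0.77 (SE 0.12, between 0.66 and 0.85 with each mouse left out). Plat (ENSMUSG00000031538), tissue plasminogen activator, the form made by neurons and vessels, had 1100, 878 and 1046 counts in the RC mice, against 780, 1369 and 1297 in the RN mice. RN replicate 1 was the lowest of all 6 mice and the other RN mice were the highest, so the RN mice enclosed the RC mice, at 58.0 ± 4.89 CPM in the RC mice and 64.0 ± 15.3 CPM in the RN mice. Its fitted log2 fold change of 0.14 was smaller than its SE of 0.17.

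Adamts1 (ENSMUSG00000022893), which cuts the proteoglycans aggrecan and versican and restrains vessel growth, was the one gene of the 10 with a fitted value below 0. It had 490, 725 and 390 counts in the RC mice, against 380, 702 and 475 in the RN mice, and the groups overlapped over most of their range. The level was 31.1 ± 10.9 CPM in RC and 28.9 ± 7.74 CPM in RN, a fitted log2 fold change of -0.10 (SE 0.27). The sign turned to 0.22 without RC replicate 2 and to 0.05 without RN replicate 1, so these mice set it.

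**Figure D2:**
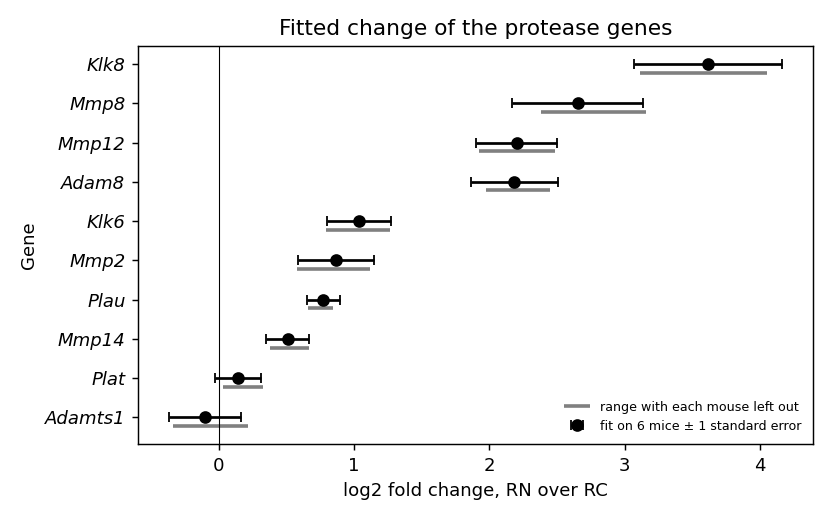
Fitted log2 fold change of RN over RC for each of the 10 protease genes in edgeR (points, with bars of 1 standard error) and, in grey, the range when each mouse is left out in turn. The order runs from Klk8 at 3.62 down to Adamts1 at -0.10, and the range crosses 0 for Adamts1 alone.

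Divided by exon length, the levels of the 10 genes could be ranked within a group. In RC, Klk6 stood first at 37.6 ± 9.52 CPM per kb of exon, followed by Plau at 12.1 ± 1.06, Plat at 9.30 ± 0.78, Mmp14 at 6.72 ± 0.65, Mmp2 at 5.96 ± 1.36, Adamts1 at 5.86 ± 2.06, Mmp12 at 1.85 ± 0.32, Klk8 at 1.40 ± 0.70, Adam8 at 0.83 ± 0.23 and Mmp8 at 0.22 ± 0.12. Neighbours in this order overlapped between mice for Mmp14 with Mmp2, Mmp2 with Adamts1, Mmp12 with Klk8 and Klk8 with Adam8, and the other steps were clear of overlap. In RN, Klk6 at 76.9 ± 22.6 CPM per kb was still first and Mmp8 at 1.41 ± 0.57 still last, and both stood clear of their neighbours. Klk8 had moved from eighth to the third place at 17.1 ± 10.1 CPM per kb, behind Plau at 20.6 ± 2.72, although every step from Plau down to Adam8 at 3.79 ± 1.32 overlapped its neighbour. The lengths were unions of exons in GENCODE M21, so a gene read mainly from a short transcript is understated.

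The mice of a group did not differ alike in all 10 genes. RN replicate 1 was the lowest RN mouse in 9 of the 10, all but Klk6, whose lowest was RN replicate 3. RN replicate 2 was the highest RN mouse in 7 genes and RN replicate 3 in the other 3, Mmp8, Mmp12 and Plau. Neurod1 itself was not lowest in RN replicate 1, with 1123 counts against 910 in RN replicate 3. Among the RC mice the highest was RC replicate 2 in 6 genes, RC replicate 1 in 3 and RC replicate 3 in 1.

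Over the deviations of the 6 mice from their group means, the 45 pairs of genes had a median correlation of 0.54, and 5 pairs exceeded 0.8. These were Klk8 with Mmp2 at 0.995, Plat with Mmp14 at 0.948, Klk8 with Adamts1 at 0.905, Adam8 with Mmp12 at 0.888 and Mmp2 with Adamts1 at 0.872. Klk8 thus varied from mouse to mouse with 2 genes whose groups overlapped. In 6 pairs the correlation was below 0, the lowest being Klk6 with Plau at -0.73. These values rest on 6 points that share libraries and dissection, and are given as a description.

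**Figure D3:**
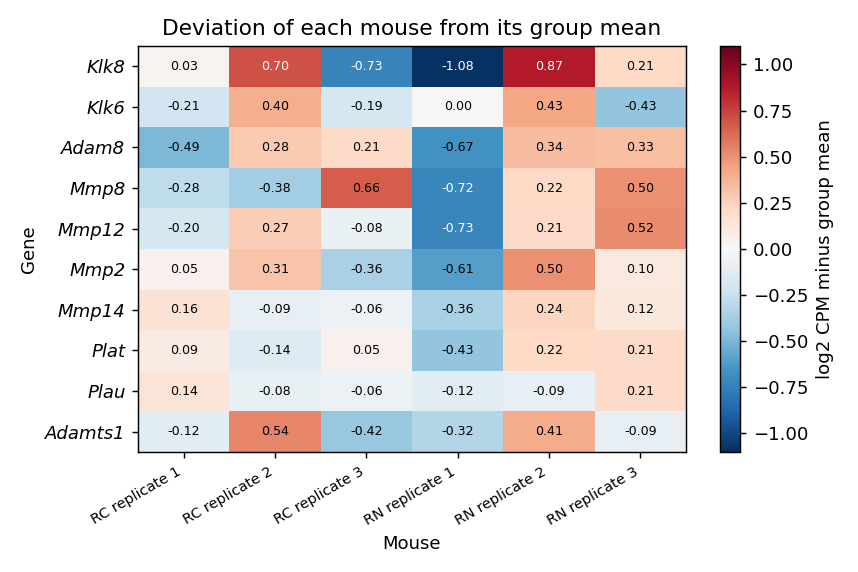
Deviation of each mouse from the mean of its own group in log2 CPM, for the 10 protease genes in rows and the 6 mice in columns, red above and blue below the mean. The column of RN replicate 1 is blue or blank throughout, and the rows of Klk8, Mmp2 and Adamts1 share their pattern.

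By likeness of log2 CPM over the 6 mice, among 14955 other tested genes, Klk8 was nearest to Anpep (r = 0.995), an aminopeptidase of myeloid and vessel-associated cells, to Fcgr4 (0.993), an activating Fc receptor of macrophages, to Usp10 (0.992), a deubiquitinase, to Itgax (0.990), the CD11c integrin chain, and to Bub1 (0.989), a mitotic checkpoint kinase. Anpep had 424, 511 and 385 counts in the RC mice, against 775, 1285 and 1003 in the RN mice, the same order of mice as Klk8. Adam8 was nearest to Rrad (0.992), a small GTPase, Tmem120b (0.991), a membrane protein, Vgf (0.991), a secreted neuropeptide precursor, Utp4 (0.991), a ribosome assembly factor, and Smg8 (0.989), a factor of RNA decay. Each r covers 6 mice and holds the group difference, and the nearest genes include ones of small change such as Usp10, whose fitted log2 fold change was 0.12 with an SE of 0.08.

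The other genes of the protease system were taken from 10 lists with 172 genes, chosen with earlier results of these data known. Of these, 125 were tested and 20 had at most 3 counts in every mouse. By edgeR's quasi-likelihood test 1 of the 125 was called higher in RN and 0 lower, beside 0.0735% of all tested genes in either direction. At an unadjusted p under 0.05 there were 18 higher and 11 lower, where 5.44% of all tested genes were higher and 6.33% lower. The same shares stand beside the counts at this threshold for each list below. DESeq2 called 2 of the listed genes higher and 1 lower, beside 0.609% of its genes higher and 87 of its 16250 genes lower. Mmp27, a matrix metalloprotease, is in none of the lists and is not in these counts. The RN mice stood above the RC mice in 15 of the 125 and below them in 12, beside 8.18% and 8.12% of all tested genes. The fitted change was positive in 66 and negative in 59, with a median of 0.05, near that of all genes. The fitted changes of the listed genes thus centred near 0, with genes on both sides. As the lists were chosen with earlier results of these data known, nothing is read from the shares of the 125.

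Ecel1, a membrane endopeptidase of neurons related to neprilysin that is known from axon injury, was the gene called. It had 742, 779 and 723 counts in the RC mice, against 1644, 1907 and 2569 in the RN mice, so it was higher in 3 of 3 RN mice. Its level rose from 43.2 ± 2.91 CPM to 114.5 ± 25.4 CPM, that is a log2 fold change of 1.41 (SE 0.15, adjusted p = 0.0365 in edgeR's quasi-likelihood test). The call held in 8 of the 12 alternatives run and was lost without RC replicate 1 (adjusted p = 0.0752), RC replicate 2 (0.092), RC replicate 3 (0.0616) or RN replicate 2 (0.107). Its list of 12 neprilysin-type and astacin-type endopeptidases had 9 tested genes and a median of 0.13, with 3 genes higher at an unadjusted p under 0.05: Ecel1, Ece2 at 0.31 (adjusted p = 0.185 by edgeR) and Mmel1 at 0.82 (adjusted p = 0.315).

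Among the 7 metalloprotease inhibitors, of which 6 were tested, 2 were higher and 3 lower at an unadjusted p under 0.05. Timp1, the inducible inhibitor of most matrix metalloproteases, had 42, 89 and 71 counts in the RC mice, against 125, 322 and 210 in the RN mice. The groups did not overlap, at 3.91 ± 1.49 and 12.1 ± 4.90 CPM, and the log2 fold change of 1.64 (SE 0.37) had an adjusted p of 0.136 in edgeR, of 0.0453 with the replicate number as a block and of 0.00109 in DESeq2, with a range over the alternatives from 0.00109 to 0.323. Timp2, the partner of Mmp14 in activating Mmp2, averaged 695.6 ± 40.2 CPM in the RC mice and 833.8 ± 16.3 CPM in the RN mice, that is a log2 fold change of 0.26 (SE 0.08, adjusted p = 0.211 by edgeR). Timp4, an inhibitor known from brain and heart, had a log2 fold change of -0.78 (adjusted p = 0.139), Reck, a membrane-anchored inhibitor, one of -0.47 (adjusted p = 0.313) and Timp3, the matrix-bound inhibitor, one of -0.31 (adjusted p = 0.424), none of which passed the threshold in edgeR. The inhibitors thus had fitted values on both sides of 0, with a list median of -0.03.

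The partners of the plasminogen activators were 12 genes, of which 9 were tested, with 1 higher and 1 lower at an unadjusted p under 0.05 and a median of 0.22. Plg, their substrate plasminogen, had at most 3 counts in any mouse. Plaur, the urokinase receptor, had 86, 113 and 57 counts in the RC mice, against 124, 148 and 105 in the RN mice, overlapping groups with a log2 fold change of 0.51 (adjusted p = 0.546 by edgeR). Of the inhibitors, Serpini1, neuroserpin, was at 0.10 (adjusted p = 0.901) and Serpine2, the glial protease nexin, at -0.39 with every RN mouse below every RC mouse (adjusted p = 0.197). S100a10, which presents plasminogen on membranes, was at 0.48 (adjusted p = 0.212), and Serpinf2, antiplasmin, at 0.91 in overlapping groups (adjusted p = 0.466). None of these passed the threshold in edgeR.

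The 16 other matrix metalloproteases had 12 tested genes with a median log2 fold change of 0.21, and 2 were higher and 1 lower at an unadjusted p under 0.05. Mmp9, gelatinase B, which like Mmp8 is stored in neutrophils, had 39, 65 and 30 counts in the RC mice, against 46, 29 and 20 in the RN mice, overlapping groups with a log2 fold change of -0.53 (adjusted p = 0.737 by edgeR). Mmp13, a collagenase, had 7, 12 and 12 counts in the RC mice, against 13, 38 and 51 in the RN mice (log2 fold change 1.65, adjusted p = 0.258). Mmp3, stromelysin, had 12, 1 and 3 counts in the RC mice, against 13, 39 and 13 in the RN mice (1.95, adjusted p = 0.377), and Mmp15 was at -0.42 (adjusted p = 0.204). Neither Mmp13 nor Mmp3 passed the threshold in edgeR, and both had few counts. Both passed the filter on low counts only through the RN mice, where they were high, so their direction is not read as a result. Mmp9 had a fitted value of the opposite sign to that of Mmp8. The list does not hold Mmp27.

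The 39 other secreted or membrane serine proteases were mostly too low in count to test. Of them 17 were tested, with a median of -0.14, 1 higher and 2 lower at an unadjusted p under 0.05: Masp1, a complement lectin pathway protease, at 0.44 (adjusted p = 0.216 by edgeR), Pcsk6, a proprotein convertase, at -0.53 (0.127) and Prss35 at -0.69 (0.255). Klk7, which in the genome lies between Klk8 and Klk6, had at most 5 counts in any mouse. The 9 other ADAM proteases had 7 tested genes and a median of -0.0016, with 1 higher and 0 lower at an unadjusted p under 0.05. The sheddases Adam10 and Adam17 were at -0.0016 and -0.12 in overlapping groups (adjusted p = 0.999 and 0.799), and Adam12 was at 0.79 (adjusted p = 0.221). Adam33 was at 0.60 (adjusted p = 0.636) and Adam19 at 0.15 (0.768).

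The 18 other ADAMTS proteases had 17 tested genes and a median of 0.05, with 1 higher at an unadjusted p under 0.05, Adamts4, an aggrecan-cutting enzyme, at 0.26 (adjusted p = 0.340 by edgeR). Adamts19 was at -0.81 (0.452) and Adamts15 at -0.46 (0.489). Of the 12 cathepsins and legumain, the lysosomal proteases, all were tested, with a median of 0.22, 4 higher and 1 lower at an unadjusted p under 0.05. Ctsl had 2853, 2946 and 2558 counts in the RC mice, against 3562, 6366 and 4864 in the RN mice (log2 fold change 0.77, adjusted p = 0.126), Ctsb was at 0.49 (0.175) and Ctsz at 0.36 (0.315).

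The 32 other serine and cysteine protease inhibitors had 23 tested genes, a median of -0.09, and 3 higher and 2 lower at an unadjusted p under 0.05. Wfdc2, a secreted inhibitor of epithelia, had 57, 148 and 21 counts in the RC mice, against 9, 18 and 6 in the RN mice, that is a log2 fold change of -2.83 (adjusted p = 0.184 by edgeR). DESeq2 called it, and it moved beside the choroid plexus markers, whose sums were highest in the same RC mouse. Wfdc2 passed the filter on low counts only through the RC mice, where it was high. Serping1, the inhibitor of complement C1, was at 0.94 (adjusted p = 0.278) and Serpina3n, a serpin of reactive astrocytes, at 0.96 (0.341). The 15 receptors and substrates had 13 tested genes, a median of 0.01, and 0 higher and 1 lower at an unadjusted p under 0.05. Bcan, brevican, was at -0.36 (adjusted p = 0.269), Acan, aggrecan, at 0.46 (0.487), F2rl2 at 1.18 (0.525) and the thrombin receptor gene F2r at -0.28 (0.664). F2rl1, the trypsin-type receptor gene, was not tested, with 10, 4 and 4 counts in the RC mice, against 9, 14 and 3 in the RN mice.

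**Figure D4:**
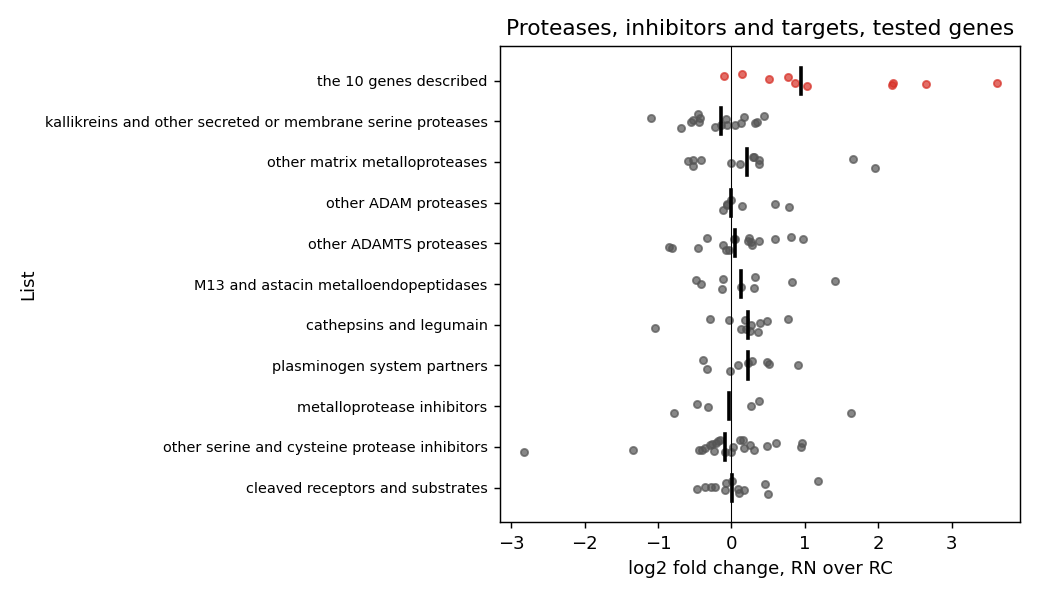
Fitted log2 fold change of RN over RC for every tested gene of the 10 protease genes (red) and of the 10 lists of other proteases, inhibitors and targets (grey), with the median of each list as a black bar. The 10 genes, chosen on this contrast, have a median of 0.95, and the medians of the other lists lie between -0.14 and 0.22.

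Several cell type marker lists moved with the groups, and their part in the protease values was not tested. Phagocytic macrophage and microglia markers summed to 939.9, 1264 and 1013 CPM in RC and to 1772, 3107 and 2357 CPM in RN. At an unadjusted p under 0.05, 9 of 10 were higher, beside 5.44% of all tested genes, while edgeR called 0. With the replicate number as a block edgeR called Gpnmb (log2 fold change 1.37, adjusted p = 0.00936), beside 0.114% of all tested genes higher. DESeq2 called 4 higher, Gpnmb, Spp1, Itgax and Clec7a, beside 0.609% of its genes. RN replicate 1 was the lowest RN mouse in this sum as in 9 of the 10 proteases. Within the groups the list followed Klk8 (r = 0.973 over 6 deviations), Adamts1 (0.961) and Mmp2 (0.950) closely and the myeloid enzymes Mmp12 (0.761), Adam8 (0.678) and Mmp8 (0.084) less so. Adam8 correlated more with the astrocyte list (0.887), and Mmp12 with the endothelial (0.846), astrocyte (0.842) and homeostatic microglia (0.83) lists. Homeostatic microglia markers lay between 861.7 and 972.0 CPM in RC and between 757.8 and 1052 CPM in RN, with overlapping groups. Of the other marker lists, DESeq2 called 5 hypothalamic neuron markers higher. It called 6 choroid plexus markers lower, beside 87 of its 16250 genes lower.

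No neutrophil marker passed the test between the groups in edgeR or DESeq2. They summed to 11.7, 15.2 and 20.4 CPM in RC and to 22.7, 15.5 and 3.36 CPM in RN, with 0 of 6 tested genes at an unadjusted p under 0.05. RN replicate 3, which had the highest Mmp8 of all mice, had 8 counts of S100a8, 6 of S100a9, 9 of Ngp, 5 of Ltf, 2 of Mpo, 20 of Mmp9 and 0 of Camp, Retnlg and Elane, genes of neutrophil granules and cytoplasm. The remaining list genes, Cxcr2 at 7 counts and Ly6g at 3, were not the lowest of the RN mice there. The correlation of Mmp8 with this list within the groups was -0.48. In RN the mouse with the highest Mmp8 thus had the lowest marker sum, whereas in RC replicate 3 was highest in both.

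Astrocyte markers summed to between 5941 and 7630 CPM in RC and between 4088 and 5259 CPM in RN, with 5 of 8 lower at an unadjusted p under 0.05. Endothelial markers summed to between 580.2 and 622.0 CPM in RC and between 383.1 and 496.4 CPM in RN, with 6 of 9 lower. Over all tested genes 6.33% were lower at that threshold. In bulk tissue, fewer cells of a type and less RNA per cell cannot be told apart. Plat and Mmp14, which vessels express, followed the endothelial list within the groups (r = 0.922 and 0.957 over 6 deviations), and neither was lower in RN on average. Fibroblast markers lay between 77.3 and 214.3 CPM in RC and between 151.7 and 348.6 CPM in RN, hippocampal neuron markers between 204.8 and 252.6 CPM and between 243.4 and 350.6 CPM. Border macrophage, pericyte and pan-neuronal lists overlapped between the groups. Klk8 is expressed by hippocampal neurons, and within the groups its correlation over 6 deviations was 0.851 with the hippocampal list, 0.849 with the endothelial, 0.838 with the astrocyte and -0.808 with the pan-neuronal list.

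**Figure D5:**
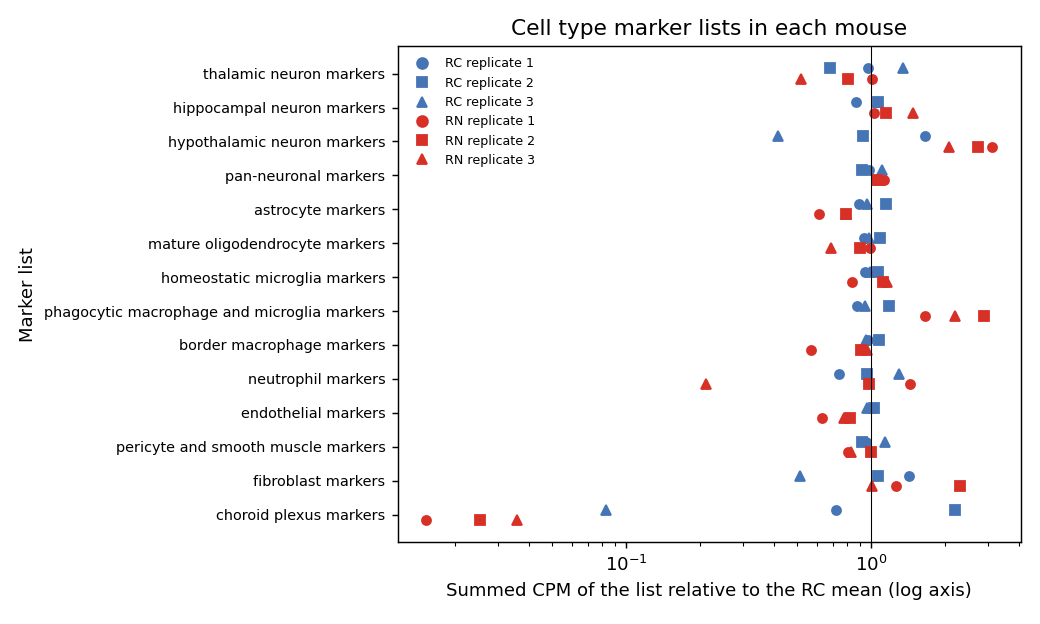
Summed CPM of each cell type marker list in each mouse, divided by the mean of the 3 RC mice, on a log axis, with RC mice in blue and RN mice in red. The phagocytic and hypothalamic lists have all RN mice to the right of all RC mice, the astrocyte, endothelial and choroid plexus lists have them to the left, and RN replicate 3 stands far left in the neutrophil list.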

How the data were processed

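RNA of thalamus tissue from 3 RC and 3 RN mice was sequenced, and samples were grouped by their labels. The table deposited by the authors holds whole-number counts for each gene and mouse that had not been normalized. The submitters' processing notes name fastp 0.18.0, FastQC, HISAT2 2.2.4, RSEM 1.2.19 and GRCm39. RSEM estimates counts, so the deposited counts may be rounded estimates, and how reads shared by related genes were split, the annotation and the use of strand are not given in the sources used here. Counts of close relatives such as the kallikreins and matrix metalloproteases are uncertain to that extent.

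Genes of low count were removed with filterByExpr (minimum count 10), which left 14956 of the 18782 genes with any count. Counts were normalized by TMM and fitted with edgeR 4.0.16 in R 4.3.3 (quasi-likelihood test on group, legacy method), with Benjamini-Hochberg adjustment over all tested genes. The biological coefficient of variation was 17.4%. Calls required an adjusted p under 0.05 together with at least a 2-fold difference. Log2 CPM used a prior count of 2. The scripts were tested on simulated data. The alternatives were DESeq2 1.42.0, its size factors, no filter or at least 10 counts in every mouse, no legacy option, no fold threshold, a replicate block, and each mouse left out. The labels do not say what a replicate number shares. Mice of the same number deviated together weakly in each pair (correlations of 0.173, 0.120 and 0.209 across genes). RC replicate 1 also did with RN replicate 2 (0.156). The values were 0.060 for RC replicate 2 with RN replicate 3 and 0.0077 for RC replicate 3 with RN replicate 1. Deviations from group means are not independent, so these values do not settle whether the numbers pair mice. The block leaves few degrees of freedom and is reported as an alternative wherever a call depended on it.

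The members, the lists and the tests were chosen with earlier results of these data known. Named are the 10 proteases, up to 3 genes of each protease or inhibitor list by smallest p, fixed partners (Plaur, Plg, Serpine2, Serpini1, Timp1, Timp2, Timp3, Reck, Mmp9, Mmp3, Klk7, Adam10, Adam17, Ecel1, F2r and F2rl1, with 1 further partner not reported here), Neurod1, and for Klk8 and Adam8 the 5 genes of highest correlation. Other genes were named after their values were seen. Whether mice of a group came from separate litters or cages is not stated. The p-values weigh the group difference against the spread between these mice, estimated with information shared across genes.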

Additional observations from a re-analysis of the deposited data

How the results depend on the processing

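Of 119 log2 fold changes of the 10 proteases under alternatives, 117 kept their direction, and the exceptions were Adamts1 without RC replicate 2 (0.22) and without RN replicate 1 (0.05), in a range from -0.34 to 0.22 with each mouse left out. DESeq2 called 99 genes higher and 87 lower, where edgeR called 9 and 2. It called 5 of the 10 proteases, and 2 other protease or inhibitor genes of the lists, which do not hold Mmp27, higher and 1 lower. Without a filter on low counts edgeR called 36 genes higher and 7 lower, and 3 of the 10 proteases. With the replicate block it called 17 higher and 5 lower, 4 of the 10 proteases, and 2 other protease or inhibitor genes higher. It also called Gpnmb, Anpep and Vgf, and changed no other call among the genes named. With each mouse left out, edgeR called 3 to 26 genes higher and 0 to 18 lower, 0 to 3 of the 10 proteases and 0 to 1 other protease or inhibitor genes higher. In these fits the group of 2 mice is assumed to vary as the group of 3. The cause of these shifts was not tested. Ecel1 was not called without RC replicate 1, 2 or 3 or RN replicate 2. Around 0, Adam10 turned positive with DESeq2 (0.00031), DESeq2's size factors (0.00023), the replicate block (0.0059) and without RC replicate 1, RN replicate 1 or RN replicate 2, in a range from -0.0903 to 0.0940 with each mouse left out, and Serpini1 turned negative without RC replicate 2 or RN replicate 1 (-0.052 and -0.050, in a range up to 0.26). DESeq2's size factors, at least 10 counts in every mouse, no legacy option and no fold threshold left every count of calls on proteases as it was. With at least 10 counts in every mouse, however, Mmp8 was not tested, nor were Mmp3, Mmp13, Mmp27, F2rl2 and Wfdc2. With 3 mice a group and low counts in RC of Mmp8 and of its cluster neighbours Mmp3, Mmp13 and Mmp27, small differences in these genes could have been missed. No limit of detection was computed for them.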

Other observations

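The genome neighbours of the kallikreins and of Mmp12 and Mmp8 were looked at after the values were seen, in RefSeq's gene order of GRCm38.p6. Klk8 and Klk6 belong to a cluster of 26 kallikrein genes on chromosome 7. Of the 24 others in the cluster, 19 had at most 3 counts in every mouse and 22 at most 9. Klk9, the direct neighbour of Klk8, had 1, 9 and 1 counts in the RC mice, against 2, 27 and 9 in the RN mice, highest within each group in the mouse with the highest Klk8 count. Klk1 was the one other gene of the cluster that was tested, at a log2 fold change of -0.45 with a standard error of 0.74. Expression in this tissue was thus found mainly at Klk8 and Klk6, with the gene between them, Klk7, near 0.

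Mmp12 and Mmp8 belong to a cluster of 10 matrix metalloprotease genes on chromosome 9. Mmp27, the neighbour of Mmp8 and a poorly studied member of the stromelysin type, had 4, 4 and 3 counts in the RC mice, against 15, 48 and 26 in the RN mice. The fitted log2 fold change of Mmp27 was 2.92 with a standard error of 0.55 and an adjusted p of 0.0986 in edgeR's quasi-likelihood test, with 3 of 3 RN mice above every RC mouse. DESeq2 gave Mmp27 an adjusted p of 0.00615. Mmp10 had 4, 9 and 7 counts in the RC mice, against 0, 16 and 7 in the RN mice and was not tested. The other 4 genes without a value above, Mmp1a, Mmp1b, Mmp20 and Mmp7, had 0 counts in every mouse. Mmp13 and Mmp3, described above, lie in the same cluster. Mmp12 and Mmp8 had been chosen on this contrast, and Mmp27 reached 10 counts in the RN mice alone, so no count of directions is given.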
